A study of Mus musculus with 18 samples.

Results

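The 9 genes described here are the annexin genes Anxa1, Anxa2, Anxa3, Anxa4 and Anxa5, the galectin genes Lgals1, Lgals3 and Lgals9, and Lgals3bp, whose product is a ligand of galectin-3. They were chosen as a list of gene symbols, and 13 of the 22626 probe sets of the array are annotated to one of them alone, out of 12393 genes named in that way. The list was drawn up with earlier results of these data known. Counts of its genes beside shares over all genes are therefore descriptions and not tests of the list. The retinas came from Balb/cJ mice whose retina had been detached by an injection of 1 uL beneath it. The fluid was saline in 9 samples and saline with 10 uM INS37217 in the other 9. INS37217, also called denufosol, activates the P2Y2 nucleotide receptor and thereby the removal of subretinal fluid by the pigment epithelium. Samples were taken 2 h, 24 h and 7 d after the injection, with 3 arrays for each fluid and time. Every sample was RNA pooled from more than 5 retinas, so the arrays show the spread between pools and not between mice. The sources used here do not give the age of the mice. Uninjected retinas were not analysed here, and all groups share the injection and the detachment.

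Annexins are proteins that bind acidic membrane lipids in the presence of calcium. Annexin A1 is a glucocorticoid-induced protein that dampens inflammation through formyl peptide receptors, annexin A2 forms a complex with S100a10 that binds plasminogen at the cell surface, and annexin A5 binds the phosphatidylserine that dying cells expose. Galectins are lectins that bind beta-galactoside sugars and are secreted without a signal peptide. In the retina galectin-1 and galectin-3 are known from glia, and galectin-3 also from phagocytic microglia and macrophages.

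Upstream sequences were examined because the members moved together with time. RefSeq promoter windows of GRCm38.p6, from 250 bases before to 50 after the start of the gene, were found for 7 of the 9 genes, all but Anxa3 and Lgals1. Each window was searched on both strands for TGANTCA (the AP-1 motif), AANNGAAA (a core of the interferon regulatory factor motif), TTCNNNGAA (the STAT motif) and the NF-kB motif. Of 32851 windows of 300 bases, 7.81% held the AP-1 letters, 23.9% the interferon regulatory factor core, 8.3% the STAT letters and 4.51% the NF-kB motif. The windows of Anxa2, Lgals3bp and Lgals9 are shown, without the bases after the start, as those of 3 of the 4 genes with a motif match; the windows of Lgals3 and Anxa1 hold none and are not shown. Capitals mark the motif found. They lie at chr9:69453433-69453682 (plus strand), chr11:118401960-118402209 (minus strand) and chr11:78984925-78985174 (minus strand).
Anxa2: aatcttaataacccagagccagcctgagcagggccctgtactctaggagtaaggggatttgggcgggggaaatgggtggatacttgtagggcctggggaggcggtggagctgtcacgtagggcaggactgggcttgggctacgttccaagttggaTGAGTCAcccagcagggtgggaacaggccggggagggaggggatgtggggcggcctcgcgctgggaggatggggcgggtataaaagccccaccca
Lgals3bp: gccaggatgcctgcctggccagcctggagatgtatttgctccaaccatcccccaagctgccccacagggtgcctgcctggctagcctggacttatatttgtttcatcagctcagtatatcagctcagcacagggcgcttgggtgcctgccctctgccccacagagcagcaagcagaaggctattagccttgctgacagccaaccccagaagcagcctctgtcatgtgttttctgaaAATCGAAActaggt
Lgals9: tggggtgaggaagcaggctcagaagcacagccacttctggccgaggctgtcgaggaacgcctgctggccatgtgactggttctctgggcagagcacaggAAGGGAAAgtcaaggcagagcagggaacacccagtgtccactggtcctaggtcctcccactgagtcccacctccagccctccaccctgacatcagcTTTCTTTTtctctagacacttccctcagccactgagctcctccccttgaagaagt
In Anxa2 the AP-1 letters TGAGTCA begin at position -95 from the start. The core AATCGAAA begins at position -14 in Lgals3bp, and Lgals9 holds the core 3 times, at positions -151, -55 and 16, the last of these outside the bases shown. One of the windows of Anxa4 holds GGGACTTTCC, an NF-kB motif, at position -55, and its other window holds none. No motif was found in the windows of Anxa1, Anxa5 and Lgals3, which says only that these letters are not there. A match is a description of the letters, and the interferon regulatory factor core, found in 2 of the 7 genes, is common among all windows.

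Values are the log2 signals deposited by the submitters, and a difference of 1 is a doubling. They are not compared between genes, because probe sets differ in brightness. Differences were tested with limma over all 22626 probe sets, and a gene passed when the adjusted p of a probe set of its own was below 0.05. Arrays that carry the same replicate number deviated from their group means together, with correlations of 0.426 to 0.921 over 45 pairs. The arrays numbered 1 stood apart. By the brightest probe set of each gene, Anxa1, Anxa2, Anxa5, Lgals1 and Lgals3 were lowest on them in all 6 groups. The mean of replicates 2 and 3 was higher by 1.14 on average for Lgals1 and by 0.428 to 0.517 for the other 4. A dimmer probe set of Lgals1 spread less, with an SD of 0.19 against 0.63 in saline at 2 h. Anxa3 was lowest on the arrays numbered 1 in 5 groups and Anxa4 in 4, whereas Lgals9 was lowest in 2 and Lgals3bp in 0. A second fit therefore had the replicate number as a block, and its result is given where it changes a call. The sources used here do not say what the numbers stand for.

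Some labels were inconsistent. The source name mentions saline alone on 8 of the 9 INS37217 arrays, and gives 2 h for replicate 2 of saline at 7 d. The titles were followed, and that array correlated best with replicate 2 of INS37217 at 7 d (0.9945) and replicate 3 of saline at 7 d (0.9941). The mean over 6 rod markers was 12.42 in saline and 12.46 in INS37217 at 2 h, and 11.68 to 11.91 in the later groups. The saline 2 h arrays differed from the others in a larger gap between the 3' and 5' probe sets of beta-actin, 1.04 ± 0.0929 (SD, n = 3), against 0.747 ± 0.0416 for INS37217 at 2 h and 0.603 to 0.65 in the other groups, and in a lower mean of 8 lens markers (11.37 against 11.99 to 12.27). These values stand beside each comparison with saline at 2 h, and their part in the results was not tested.

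From 2 h to 24 h after the injection most of the annexin and galectin transcripts rose in both fluids. In saline, 7 of the 9 genes passed as higher at 24 h and 0 as lower, against 6.82% of all genes called higher and 4.16% called lower. In INS37217, 8 of 9 passed as higher, against 4.45% of all genes, and 4.73% of all genes were called lower. The genes that missed the threshold were Anxa1 and Lgals9 in saline and Anxa1 in INS37217. With the replicate block all 9 passed in both fluids, against 21.3% of genes in saline and 14.7% in INS37217. The 3 arrays at 24 h lay above the 3 at 2 h for all 9 genes in both fluids, taking the brightest probe set of each gene, a separation seen upward in 11.6% of genes in saline and 9.45% in INS37217. The median change of the 9 genes was 1.12 in saline and 1.33 in INS37217, beside -0.05 and -0.06 over all genes. Markers of the photoreceptors went the other way: 0 of 6 rod markers were above 0, with medians of -0.53 in saline and -0.62 in INS37217, and 0 of 5 cone markers, with medians of -0.62 and -0.99. Of the rod markers 4 passed as lower in either fluid, and of the cone markers 3 in saline and 4 in INS37217. Their part in the change of the 9 genes was not tested. In pooled tissue, a change in the number of cells of a type and a change in RNA per cell cannot be told apart.

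**Figure D1:**
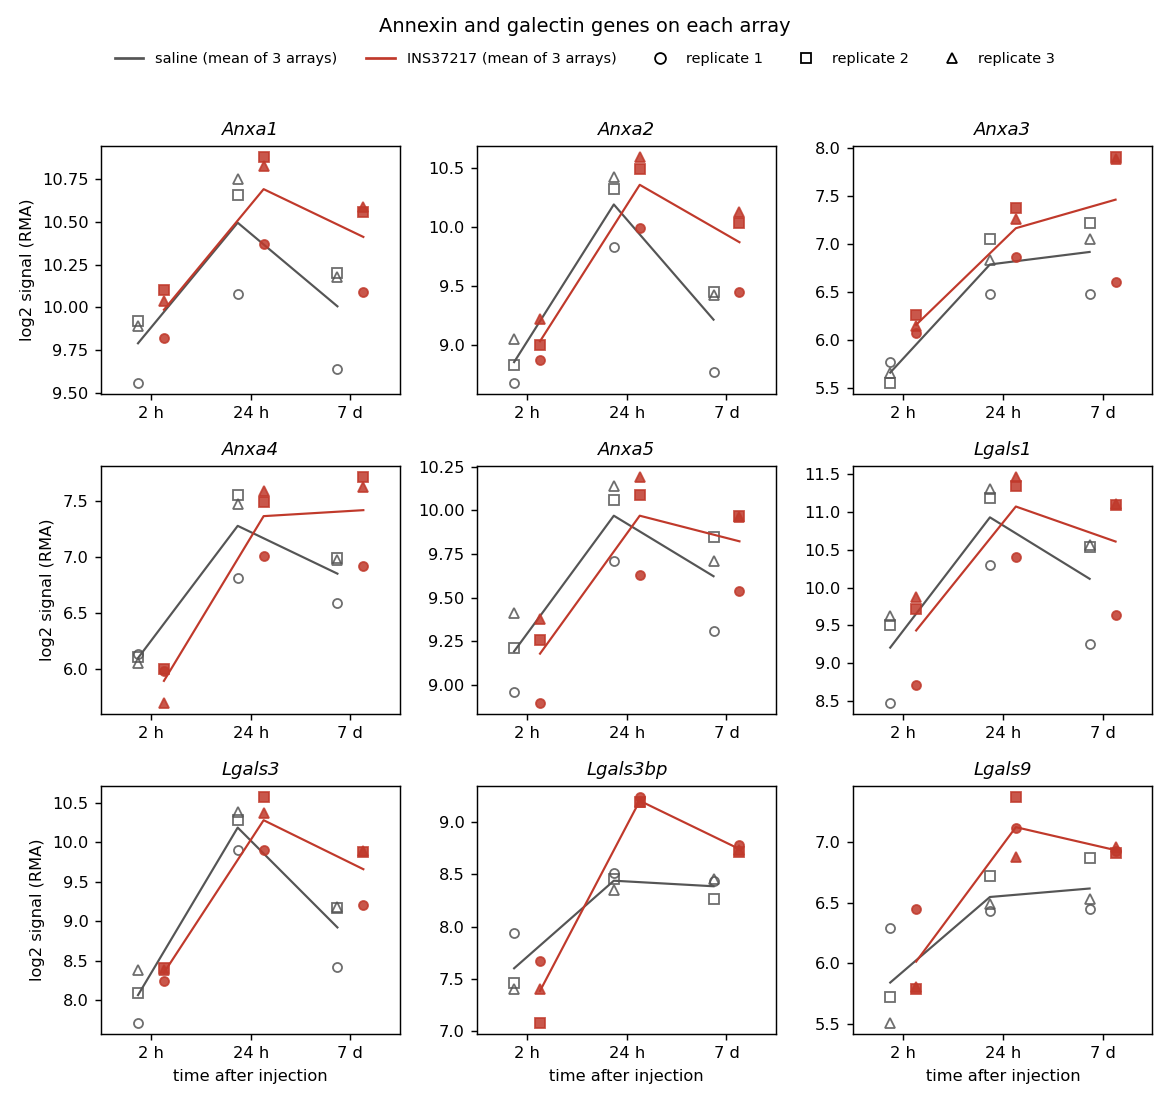
Log2 signal (vertical axis) of the 9 genes at 2 h, 24 h and 7 d (horizontal axis) in saline (grey, open) and INS37217 (red, filled), with 1 symbol per array shaped by replicate number and lines joining the means of 3 arrays. All 9 genes are above their 2 h arrays at 24 h, and replicate 1 is lowest in all 6 groups for Anxa1, Anxa2, Anxa5, Lgals1 and Lgals3.

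Lgals3, the gene for galectin-3, had the largest rise of the 9 in saline. In saline it read 7.72, 8.09 and 8.39 at 2 h, 9.90, 10.28 and 10.38 at 24 h, and 8.42, 9.17 and 9.18 at 7 d. In INS37217 it read 8.25, 8.41 and 8.39 at 2 h, 9.90, 10.57 and 10.37 at 24 h, and 9.21, 9.88 and 9.89 at 7 d. The 24 h arrays were thus the highest in both fluids, and the 7 d arrays lay between those at 2 h and 24 h, apart from both. The rise from 2 h to 24 h was 2.12 ± 0.25 (SE) in saline, or 4.35-fold (adjusted p 5.09e-05), and 1.93 ± 0.25 in INS37217 (adjusted p 0.000106). Ordered by their means, the groups were saline 2 h, INS37217 2 h, saline 7 d, INS37217 7 d, saline 24 h and INS37217 24 h, and only the 2 lowest and the 2 highest overlapped with each other.

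Lgals1 encodes galectin-1, which dampens T cell and microglial responses, and is measured by 2 probe sets. The dimmer of them read 8.49, 8.69 and 8.86 at 2 h, 10.23, 10.66 and 10.66 at 24 h, and 9.31, 10.12 and 10.09 at 7 d in saline. With INS37217 the same probe set read 8.83, 9.05 and 9.17 at 2 h, 10.33, 10.83 and 10.78 at 24 h, and 9.72, 10.48 and 10.56 at 7 d. At 24 h the arrays were all above those at 2 h and, in saline, above those at 7 d. The rise to 24 h was 1.84 ± 0.24 in saline (3.57-fold, adjusted p 0.000179) and 1.63 ± 0.24 in INS37217 (adjusted p 0.00045). The brighter probe set had similar differences of 1.72 and 1.64 but a wider spread, with saline 2 h arrays at 8.48, 9.51 and 9.63, and its adjusted p was 0.0433 in saline, lost in 5 of 6 settings with 1 array left out (up to 0.18), and 0.0614 in INS37217.

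Anxa2 had the largest rise among the annexins in saline. Its saline arrays read 8.68, 8.83 and 9.05 at 2 h, 9.83, 10.32 and 10.42 at 24 h, and 8.77, 9.45 and 9.42 at 7 d. The INS37217 arrays read 8.87, 9.0 and 9.22, then 9.99, 10.49 and 10.59, then 9.45, 10.03 and 10.13 at these times. In saline the 7 d arrays overlapped those at 2 h, while in INS37217 they were all above them. The rise to 24 h was 1.34 ± 0.23 in saline (2.53-fold, adjusted p 0.00173) and 1.33 ± 0.23 in INS37217 (adjusted p 0.00168). The other probe sets of Anxa2 showed no rise of that size. One stayed at 3.27 to 3.55 on all arrays, near the lower end of a scale that starts at 2.83. Another read 5.08 to 5.76 and was higher at 24 h by 0.17 in saline (adjusted p 0.584, and 0.24 with the block). In INS37217 it was higher by 0.30 (adjusted p 0.33, and 0.0467 with the block).

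Anxa4, which encodes a membrane-binding annexin of epithelial cells, read 6.13, 6.11 and 6.05 at 2 h and 6.81, 7.55 and 7.47 at 24 h in saline, and 6.59, 6.99 and 6.97 at 7 d. With INS37217 it read 5.98, 6.0 and 5.70 at 2 h, 7.01, 7.49 and 7.59 at 24 h, and 6.92, 7.71 and 7.62 at 7 d. Its rise to 24 h was 1.18 ± 0.23 in saline (adjusted p 0.00383) and 1.47 ± 0.23 in INS37217 (adjusted p 0.000581), and its other probe set passed in both fluids too. The values given are from its brighter probe set, by which the 2 h arrays were below all later arrays in both fluids. The 24 h and 7 d arrays overlapped within each fluid. By the other probe set the saline arrays at 2 h and 7 d overlapped, with a difference of 0.52 (adjusted p 0.357, and 0.0198 with the block). In INS37217 its 7 d arrays were all above those at 2 h.

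Anxa3 was the annexin whose mean was highest at 7 d in both fluids. It read 5.77, 5.56 and 5.66 at 2 h, 6.48, 7.05 and 6.83 at 24 h, and 6.48, 7.22 and 7.05 at 7 d in saline. After INS37217 it read 6.07, 6.26 and 6.15, then 6.86, 7.37 and 7.26, then 6.60, 7.90 and 7.88. The 24 h and 7 d arrays overlapped in both fluids, and replicate 1 of INS37217 at 7 d was 1.29 below the mean of its 2 partners. The rise to 24 h was 1.12 ± 0.29 in saline (adjusted p 0.0248) and 1.00 ± 0.29 in INS37217 (adjusted p 0.0483). These calls depended on single arrays: they were lost in 4 of 6 settings in saline (without replicate 2 or 3 at either time, adjusted p up to 0.117) and in 5 of 6 in INS37217 (all but without replicate 1 at 24 h, adjusted p up to 0.188).

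From 2 h to 24 h Anxa1 and Anxa5 had the smallest changes among the annexins in both fluids. Anxa1 read 9.56, 9.92 and 9.89 at 2 h, 10.08, 10.66 and 10.75 at 24 h, and 9.64, 10.20 and 10.18 at 7 d in saline. In INS37217 it read 9.82, 10.10 and 10.04, then 10.37, 10.88 and 10.83, then 10.09, 10.56 and 10.59. The difference from 2 h to 24 h was 0.71 ± 0.21 in either fluid, with an adjusted p of 0.0546 in saline and 0.0614 in INS37217, and 6.6e-06 and 7.74e-06 with the block. Anxa5 ranged from 8.90 to 9.41 over the 6 arrays at 2 h and from 9.63 to 10.19 over the 6 at 24 h, whichever the fluid. It rose by 0.78 ± 0.20 in saline (adjusted p 0.0252) and by 0.79 ± 0.20 in INS37217 (adjusted p 0.0241). In either fluid the call of Anxa5 was lost in 4 of 6 settings with 1 array left out, namely replicate 1 or 2 at 2 h or replicate 2 or 3 at 24 h, with an adjusted p of up to 0.117 in saline and 0.127 in INS37217.

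Lgals3bp differed from the other genes in the size of its rise between the fluids. Its saline arrays read 7.94, 7.46 and 7.40 at 2 h, 8.51, 8.46 and 8.35 at 24 h, and 8.44, 8.26 and 8.46 at 7 d. The INS37217 arrays read 7.67, 7.08 and 7.40 at 2 h, 9.24, 9.19 and 9.19 at 24 h, and 8.78, 8.72 and 8.73 at 7 d. The 3 INS37217 arrays at 24 h agreed within 0.05 and were above all the other arrays. The rise to 24 h was 0.84 ± 0.15 in saline (1.79-fold, adjusted p 0.00212) and 1.82 ± 0.15 in INS37217 (3.54-fold, adjusted p 8.76e-07). The difference between these rises was 0.98 ± 0.21, which missed the threshold in the fit without the block (adjusted p 0.207) and passed with it (adjusted p 0.00347).

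Lgals9 encodes galectin-9, an interferon-inducible galectin that binds the receptor Havcr2. It read 6.29, 5.72 and 5.51 at 2 h, 6.43, 6.72 and 6.49 at 24 h, and 6.45, 6.87 and 6.53 at 7 d in saline. With INS37217 it read 6.45, 5.79 and 5.80 at 2 h, 7.12, 7.37 and 6.88 at 24 h, and 6.93, 6.91 and 6.96 at 7 d. All 6 INS37217 arrays at the later times were above all 6 saline arrays at those times, but narrowly. The lowest INS37217 array read 6.88 and the highest saline array 6.87, and the share of genes separated in this way was not computed. The difference between the fluids did not pass with the block at 24 h (adjusted p 0.156) or 7 d (adjusted p 0.917). The difference from 2 h to 24 h was 0.71 ± 0.21 in saline (adjusted p 0.0516, and 0.00311 with the block) and 1.11 ± 0.21 in INS37217 (adjusted p 0.00312).

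**Figure D2:**
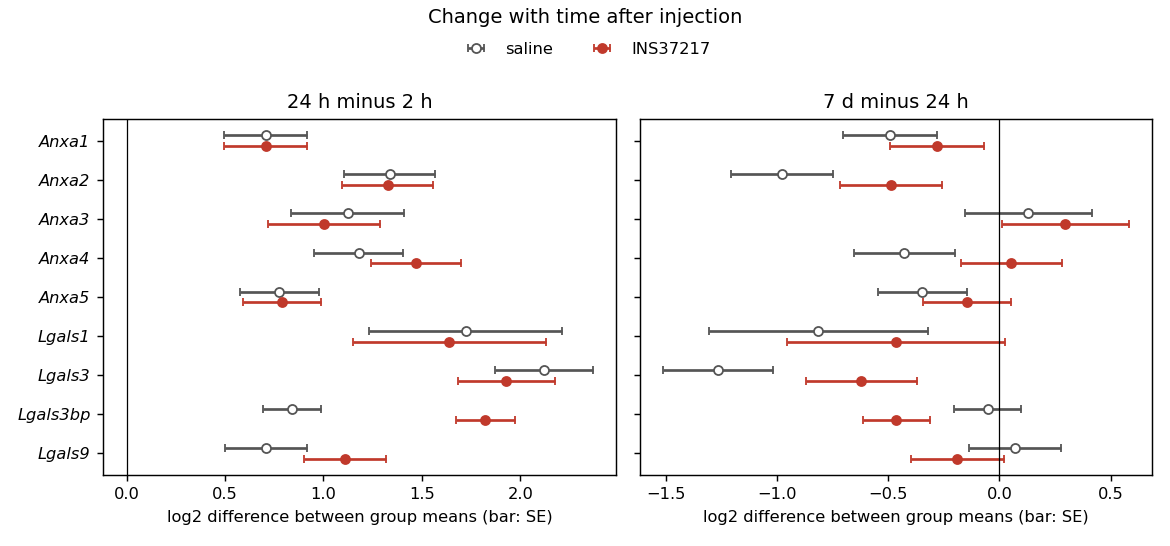
Log2 differences between group means (horizontal axis) of the 9 genes from 2 h to 24 h (left) and from 24 h to 7 d (right), in saline (open, grey) and INS37217 (filled, red), with bars of 1 SE from limma. From 2 h to 24 h the differences run from 0.71 to 2.12, and Lgals3bp has the widest gap between the fluids (0.84 against 1.82).

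In saline 1 of the 9 genes, Lgals3, passed as lower at 7 d than at 24 h, against 1.42% of all genes. Its fall was 1.26 ± 0.25 (adjusted p 0.0157), so that in saline 7 d arrays it was 0.86 ± 0.25 above 2 h (adjusted p 0.0589, and 1.38e-05 with the block). With the block 5 genes passed as lower in saline, namely Anxa1, Anxa2, Anxa5, Lgals1 and Lgals3, against 6.19% of genes. The arrays at 7 d lay below those at 24 h for Anxa2 and Lgals3 by their brightest probe set, as in 7.16% of genes. Leaving out saline 24 h replicate 2 or 3, or saline 7 d replicate 1, left 0 genes past the threshold without the block, and leaving out saline 24 h replicate 1 gave 2. Anxa3, Lgals3bp and Lgals9 differed between these times by 0.13, -0.05 and 0.07, with adjusted p of 0.992 to 0.994.

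In INS37217, 0 of the 9 genes passed as lower at 7 d than at 24 h without the block, against 1.73% of genes, and 2 had an unadjusted p under 0.05 (Lgals3 and Lgals3bp). With the block Anxa2, Lgals1, Lgals3 and Lgals3bp passed, against 5.18% of genes. Groups that did not overlap, lower at 7 d, were seen for Lgals3 and Lgals3bp, as in 5.54% of genes. The difference of Lgals3 was -0.62 ± 0.25 (adjusted p 0.413, and 0.00105 with the block) and that of Lgals3bp was -0.46 ± 0.15 (adjusted p 0.184, and 0.0126 with the block). Whether the change from 24 h to 7 d differed between the fluids was tested for each gene, and 0 of 9 passed either without the block (0.0565% of genes) or with it (0.387% of genes), and 0 had an unadjusted p under 0.05.

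Compared with 2 h, the transcripts at 7 d were higher for part of the list in saline and for most of it in INS37217. In saline 4 of 9 passed (Anxa3, Lgals1, Lgals3bp and Lgals9), against 4.31% of genes, and 8 with the block, all but Anxa1, against 17.2%. The count in saline was 1 without replicate 2 or 3 of saline at 7 d, and 2 without replicate 2 or 3 of saline at 2 h. In INS37217 7 of 9 passed, all but Anxa1 and Anxa5, against 3.65% of genes, and 9 with the block, against 12.3%. Without replicate 2 or 3 of INS37217 at 7 d the count was 4. With 1 array left out, the INS37217 call of Anxa2 (adjusted p 0.0487) was lost in 5 of 6 settings. That of Lgals9 was lost in 4 of 6 and that of Anxa3 in 2 of 6. In saline the calls of Anxa3 and Lgals9 were each lost in 4 of 6. Lgals1 passed by its dimmer probe set alone, in saline (adjusted p 0.0098, against 0.405 for the brighter) and in INS37217 (0.00593 against 0.253). The largest of these changes in INS37217 were those of Anxa4 (1.52 ± 0.23, adjusted p 0.000517) and Lgals3bp (1.36 ± 0.15, adjusted p 2.69e-05). The change from 2 h to 7 d was larger in INS37217 than in saline for 9 of 9 genes, by a median of 0.27, but for 0 of them did this difference pass, either without the block (0.129% of genes) or with it (1.21% of genes). Anxa4 and Lgals3bp had an unadjusted p under 0.05 for it. These comparisons share the 2 h arrays.

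Between the fluids at the same time, differences were smaller than those between 2 h and 24 h. At 2 h, 0 of 9 genes passed, against 0.178% of all genes in either direction, and 0 had an unadjusted p under 0.05. With the block 0 of 9 passed as well, against 2.65% of genes. The 9 differences ran from -0.22 to 0.50 with a median of 0.18, and 0.00 over all genes. Anxa3 was higher in all 3 INS37217 arrays than in any saline array, as 3.23% of genes were, by 0.50 ± 0.29 (95% interval -0.11 to 1.11, adjusted p 1, and 0.253 with the block). Anxa4 was lower in all 3 by its brighter probe set, as 3.28% of genes were, by -0.20 ± 0.23 (adjusted p 0.747 with the block). The arrays of its other probe set overlapped between the fluids. On replicates 2 and 3 alone Anxa3 passed (adjusted p 0.0116). The share over all genes was not computed for that fit.

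At 24 h, 0 of 9 genes passed without the block, against 0.153% of genes, and Lgals3bp and Lgals9 had an unadjusted p under 0.05. With the block Lgals3bp passed, against 0.855% of genes called higher. Lgals3bp was higher with INS37217 by 0.73, 0.73 and 0.84 between arrays of equal number, a mean of 0.77 ± 0.15 (1.70-fold, 95% interval 0.45 to 1.08, adjusted p 0.0758, and 0.000819 with the block). With the block kept and each of the 6 arrays left out in turn, its adjusted p stayed between 0.00189 and 0.0155. Lgals9 was higher by 0.69, 0.65 and 0.39, a mean of 0.58 ± 0.21 (adjusted p 1, and 0.156 with the block). In both genes all INS37217 arrays were above all saline arrays, as in 3.56% of genes. For the other 7 genes the difference lay between 0.00 and 0.38, and for Anxa5 it was 0.00 with a 95% interval of -0.42 to 0.42.

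At 7 d all 9 genes had higher means with INS37217, by 0.20 to 0.74 with a median of 0.49, beside -0.02 over all genes. Without the block 0 of 9 passed, against 0.202% of genes, and Anxa2, Anxa4, Lgals3 and Lgals3bp had an unadjusted p under 0.05. With the block 4 of 9 passed, namely Anxa1, Anxa2, Lgals1 and Lgals3, against 0.855% of genes called higher. Lgals3 differed by 0.79, 0.71 and 0.71 between arrays of the same number and by 0.74 ± 0.25 on average (1.67-fold, adjusted p 1, and 0.00135 with the block). Its INS37217 arrays were all above its saline arrays, as were those of Lgals3bp and Lgals9, a separation seen in 2.39% of genes. Anxa2 differed by 0.68, 0.58 and 0.71, with a mean of 0.66 ± 0.23 (1.58-fold, adjusted p 1, and 0.00136 with the block). The saline and INS37217 arrays of Anxa2 touched, because replicate 1 of INS37217 read 9.45, the highest saline value. These values are from its brightest probe set. Its other probe sets differed by 0.09 and -0.03 (adjusted p 0.994 with the block for each).

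By its brighter probe set Lgals1 differed by 0.39, 0.55 and 0.54 at 7 d (adjusted p 0.0218 with the block, against 0.151 for the other probe set) and Anxa1 by 0.45, 0.36 and 0.41 (adjusted p 0.0439 with the block). These calls were less steady than those of Lgals3 and Anxa2. With the block kept and each of the 6 arrays left out in turn, Lgals3 and Anxa2 passed each time, Lgals1 lost its call without replicate 1 or 3 of saline or replicate 2 or 3 of INS37217, and Anxa1 lost it each time. The count of genes was then 2 to 5. On replicates 2 and 3 alone 5 genes passed, Anxa2, Anxa3, Anxa4, Lgals1 and Lgals3. The share over all genes was not computed for that fit, so this count cannot be set against it. For Anxa3 the difference was 0.12 in replicate 1 and 0.68 and 0.83 in the others, and for Anxa4 0.33, 0.72 and 0.65. Anxa5 was nearest to 0 (0.20 ± 0.20, 95% interval -0.22 to 0.62, adjusted p 1, and 0.773 with the block).

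The change of the INS37217 effect from 2 h to 24 h was tested as well. Without the block 0 of 9 genes passed, against 0.0807% of genes, and 1, Lgals3bp, had an unadjusted p under 0.05. With the block Lgals3bp passed, as 0.654% of genes did in that direction, and it kept the call when each of 12 arrays was left out in turn.

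**Figure D3:**
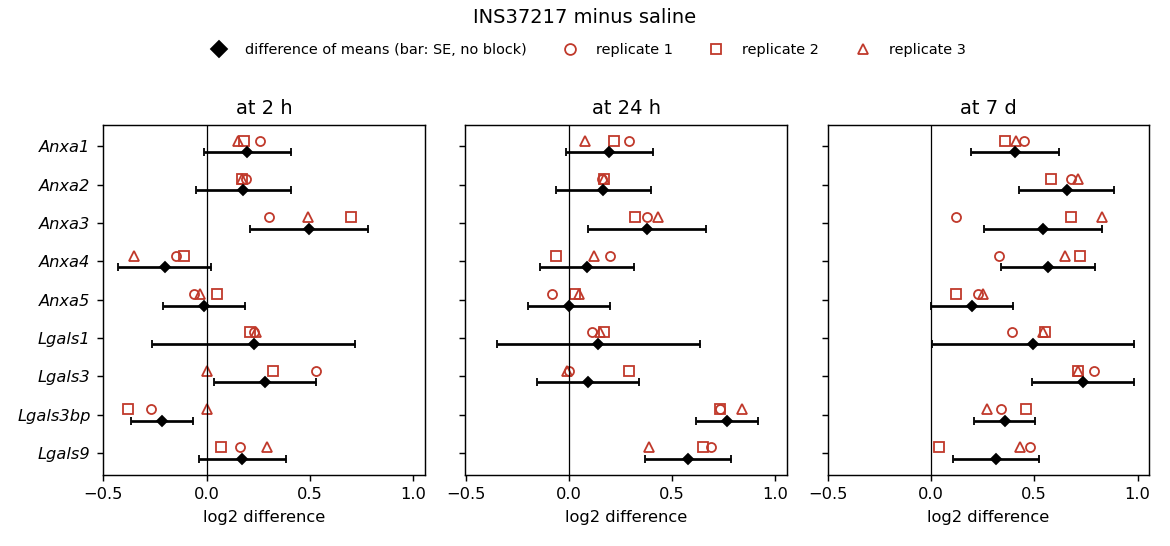
INS37217 minus saline in log2 units (horizontal axis) for the 9 genes at 2 h, 24 h and 7 d, with diamonds for the difference of means, bars of 1 SE from the fit without the block, and red symbols for the differences between arrays of the same replicate number. At 24 h Lgals3bp stands at 0.77, and at 7 d all 9 genes lie above 0, up to 0.74 for Lgals3.

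Some marker lists of other cell types were also higher with INS37217 at 7 d, and others were not. Outside microglia and macrophages, reactive glia and fibroblasts, the median differences of the lists ran from -0.20 (cones) to 0.06 (lens). At 7 d the mean over 14 microglia and macrophage markers was 7.01 in saline (arrays 6.93 to 7.06) and 7.45 in INS37217 (7.33 to 7.52), and 1 of the 14 passed without the block and 4 with it. The 6 measured markers of astrocytes and reactive glia had a mean of 8.55 and 9.24, and 2 passed, 4 with the block. The 9 fibroblast markers had a mean of 7.02 and 7.78, and 4 passed, 5 with the block. Over all genes 0.202% passed at 7 d without the block in either direction, and 0.855% passed as higher with it. Lyz2, a macrophage lysozyme, was higher by 1.22 (adjusted p 0.000708), Serpina3n, a marker of reactive astrocytes, by 1.54 (adjusted p 0.000294), and Col3a1, a fibrillar collagen, by 1.97 (adjusted p 0.000294). None of the lists of microglia and macrophages, reactive glia and fibroblasts was at the bottom of the scale in either fluid. Their part in the higher levels of Lgals3, Anxa2, Lgals1 and Anxa1 was not tested.

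At 24 h, beside the difference of Lgals3bp, the 7 measured neutrophil markers had a mean of 6.27 in saline (6.20 to 6.30) and 6.84 in INS37217 (6.79 to 6.90), with 1 passing and 2 with the block. S100a9, a neutrophil calcium-binding protein, was higher by 1.62 (adjusted p 0.0243). Microglia and macrophage markers had means of 6.40 and 6.69, with 1 passing and 3 with the block. Reactive glia markers had means of 9.77 and 10.24, with 1 passing and 3 with the block, and Lcn2, a secreted carrier of siderophores, was higher by 1.30 (adjusted p 7.29e-05). Over all genes 0.153% passed at 24 h without the block in either direction, and 0.855% passed as higher with it. Other markers were lower with INS37217 at 24 h, and in the fit with the block 4 of 10 Mueller glia markers (Rlbp1, Kcnj10, Car14 and Apoe) and 2 of 5 cone markers (Opn1sw and Arr3) passed as lower, against 0.412% of genes. The median difference of the cone markers was -0.32 at 24 h and -0.20 at 7 d, with 0 of 5 above 0 at either time. From 2 h to 24 h reactive glia markers passed as higher by any of their probe sets in 6 of 6 cases in saline, against 6.82% of genes. Their mean in saline was 8.24 at 2 h, and Cp also had a probe set that passed as lower. By the brightest probe set 6 of 6 were above 0 in saline, the lowest being Osmr at 0.02, and in INS37217 5 of 6 were, with Osmr at -0.07. In INS37217 4 of 6 passed as higher, against 4.45% of genes, and 5 with the block, against 14.7%. In saline microglia and macrophage markers passed as higher in 4 of 14 cases, against 6.82% of genes. The part of these cells in the values of the 9 genes was not tested.

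**Figure D4:**
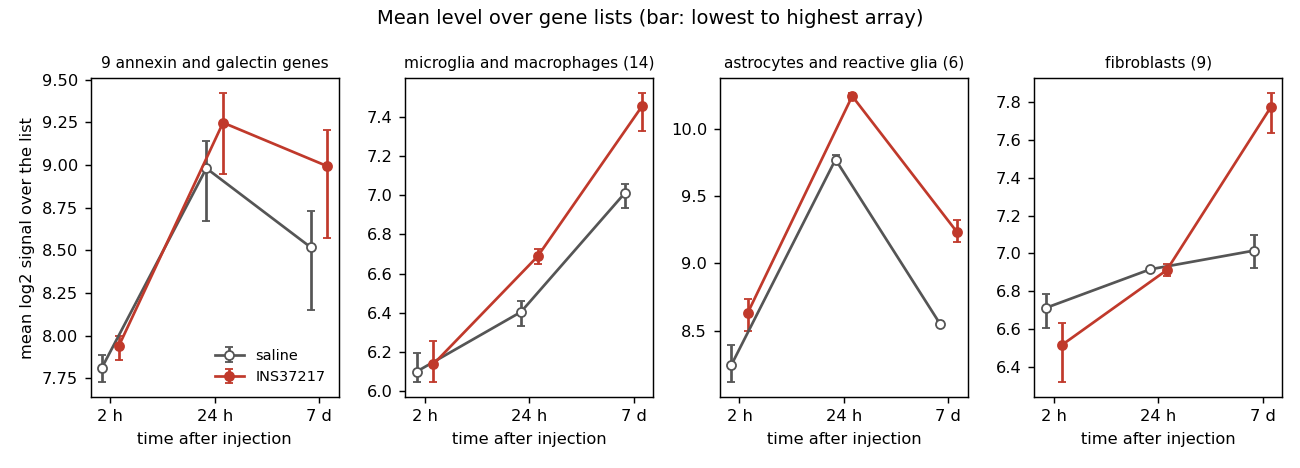
Mean log2 signal (vertical axis) over the 9 annexin and galectin genes and over 3 marker lists at 2 h, 24 h and 7 d in saline (open, grey) and INS37217 (filled, red), with bars from the lowest to the highest array. The 9 genes (8.98 and 9.25) and the reactive glia markers (9.77 and 10.24) are highest at 24 h, while microglia and macrophage markers and fibroblast markers are highest at 7 d.

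Related genes were followed in 6 lists, with 57 of 66 listed genes measured. From 2 h to 24 h 11 of 57 passed as higher and 3 as lower in saline, and 10 as higher and 1 as lower in INS37217. The shares over all genes were 6.82% and 4.16% in saline and 4.45% and 4.73% in INS37217, so that the counts of lower genes were near or under the background. S100a10, the partner of annexin A2, was higher by 1.22 ± 0.21 in saline (adjusted p 0.00156) and by 0.88 ± 0.21 in INS37217 (adjusted p 0.0158). S100a6, which binds several annexins, was higher by 2.19 (adjusted p 0.000367) and S100a4 by 1.82 (adjusted p 0.000342) in saline, and both passed in INS37217. Plat, the tissue plasminogen activator that annexin A2 binds, was lower by -2.0 ± 0.11 in saline (adjusted p 3.01e-08) and by -2.11 ± 0.11 in INS37217 (adjusted p 8.09e-09).

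Among genes for the uptake of dying cells, Axl, a receptor that binds phosphatidylserine through Gas6, was higher at 24 h by 1.79 ± 0.13 in saline (adjusted p 3.73e-07). Gas6 and Mertk, the receptor of photoreceptor uptake in the pigment epithelium, differed by -0.35 and -0.30 in saline (adjusted p 0.0919 and 0.148). Among galectin ligands and receptors, Cd47 was higher by 1.2, Lamp2, a lysosomal glycoprotein, by 0.68 and Cd44, the hyaluronan receptor, by 0.68, all in saline (adjusted p 2.08e-05, 0.00538 and 0.0347). Fpr2, the receptor of annexin A1, was at 5.04 in saline at both times. Of the other annexins, Anxa6 and Anxa7 have probe sets that moved in opposite directions, and no direction is given for them.

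Between the fluids, 0 of the 57 related genes passed at any time without the block. With it 5 passed as higher at 2 h, against 2.13% of genes, with S100a4 (0.64, adjusted p 0.0255 with the block) and Cd44 (0.54, adjusted p 0.00345 with the block) among them. At 7 d 5 passed as higher with the block, against 0.855% of genes, namely S100a6, Axl, Cd36, Itgb1 and Ptprc. Axl differed by 0.53 (adjusted p 0.00805 with the block), Itgb1, an integrin subunit that carries galectin ligands, by 0.60 (adjusted p 0.00501 with the block) and Ptprc, the leukocyte antigen CD45, by 0.95 (adjusted p 0.00366 with the block).

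The genes whose 6 group means were most like those of each member were found by Pearson's r among 1559 genes whose group means varied with an SD of at least 0.25, as a description over 6 points that share the same arrays. For Anxa2 they were Plp2 (0.9971), Lgals3 (0.9909) and Nupr1 (0.9904). Lgals3 was closest to Gclm (0.9970), S100a6 (0.9965) and Gfap (0.9958), and Lgals1 to Aldh3a1 (0.9971), S100a6 (0.9964) and Txndc17 (0.9945). Anxa1 was closest to Nupr1 (0.9979), Perp (0.9928) and Timp1 (0.9910), and Anxa5 to Axl (0.9974), A2m (0.9972) and Vwa5a (0.9958). Anxa3 was nearest to Serpinh1 (0.9892), Vit (0.9889) and Wls (0.9881), and Anxa4 to Tspan14 (0.9957), Crtap (0.9954) and Acadl (0.9947). Lgals3bp was nearest to H2-K1 (0.9873), B2m (0.9843) and Erap1 (0.9789), which encode parts of the class I antigen presentation pathway. Lgals9 was nearest to the Fc receptor gene Fcgr1 (0.9919), Sh3bgrl3 (0.9832) and Zic1 (0.9820).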

How the data were processed

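The data were one table of 18 Affymetrix mouse arrays with 22690 probe sets, of which 64 controls were left out. Per the submitters' processing notes the deposited log2 values were computed by the authors with RMA; the sources used here give neither its version nor its settings. The values range from 2.83 to 14.15 and array medians from 6.67 to 6.76; the number of arrays limits the precision. RMA equalizes arrays, so a change shared by most transcripts would not be seen.

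Groups were taken from the sample titles. Probe sets were named through the array's annotation: 20380 had 1 gene, 691 several and 1555 none. A gene is represented by its probe set of highest mean, and counts take any probe set annotated to it alone.

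The tests used limma 3.58.1 (R 4.3.3), with 1 mean for each of the 6 groups, all 18 arrays in 1 fit, 12 contrasts and moderated variances (eBayes). Adjustment by Benjamini-Hochberg ran over 22626 probe sets, with a threshold of 0.05. SE is from the fit without the block. The replicate numbers of the titles were taken to pair the arrays because, once group means were removed, each of the 45 same-number pairs had a correlation above 0.1 (lowest 0.426). The fit without the block was tested on simulated data with independent noise, for saline 24 h against 2 h alone. The simulation held no deviation shared by replicate number, and the fit with the block was not tested in this way.

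Named were all 9 members, up to 4 related genes per list by size of change among those that passed, the 3 genes of most similar group means per member and the markers with the largest changes; Gas6, Mertk and Fpr2 were named after their values were seen. The members and lists were chosen with earlier results of these data known. Alternatives were quantile normalization again, equal array medians, a filter on low probe sets, a robust eBayes with a trend, a fit to the groups compared alone, an average over each gene's probe sets, the replicate block, only replicates 2 and 3, and each array left out. Leaving out arrays with the block kept was added after the data were seen.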

Additional observations from a re-analysis of the deposited data

Results flagged for a closer look

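Lgals3bp had a different rise from 2 h to 24 h in the 2 fluids: the rise in INS37217 exceeded that in saline by 0.983 (log2), with an adjusted p of 0.00347 in the fit with the replicate block and 0.207 without it. The value is that of the interaction term of limma. In INS37217 at 24 h the 3 arrays read 9.24, 9.19 and 9.19, and in saline 8.51, 8.46 and 8.35. At 2 h the means were 7.38 in INS37217 and 7.60 in saline, and this difference of -0.22 ± 0.15 enters the interaction term. It was not called (adjusted p 1, and 0.537 with the block), its 95% interval was -0.53 to 0.10, and the 2 h arrays overlapped. With the block kept and 1 of 12 arrays left out in turn, the difference ran from 0.86 to 1.08 and its adjusted p from 0.00312 to 0.0157.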

How the results depend on the processing

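Counts of the 9 genes past the threshold for 24 h against 2 h in both fluids stayed within 1.5 times under all alternatives, and no called difference changed direction; 55 uncalled values changed sign, 50 of them with 1 array left out, the largest 0.28 in size. The replicate block gave 1 gene for INS37217 against saline at 24 h, 4 at 7 d, 5 for saline 7 d against 24 h, 8 for saline 7 d against 2 h, 4 for INS37217 7 d against 24 h and 1 for the change of the INS37217 effect from 2 h to 24 h; it changed no other count by over 1.5 times. Replicates 2 and 3 alone gave 1, 1 and 5 genes for INS37217 against saline at 2 h, 24 h and 7 d, 5 and 8 for saline 7 d against 24 h and 2 h, 4 for INS37217 7 d against 24 h, and 1 each for the change of the effect from 2 h to 24 h and to 7 d (Lgals3bp and Anxa4). Shares over all genes were computed only for the main fit and the fit with the block. Counts under the other alternatives therefore cannot be set against a share. For INS37217 against saline at 24 h, equal array medians and the mean of the probe sets each gave 1. Quantile normalization and the filter on low probe sets each gave 2 for saline 7 d against 24 h. With only the arrays compared in the fit, the counts were 0 for saline 7 d against 24 h, 1 for saline 7 d against 2 h and 3 for INS37217 7 d against 2 h. With 1 array left out, the counts were 5 to 8 (saline 24 h against 2 h), 6 to 9 (INS37217 24 h against 2 h), 1 to 6 (saline 7 d against 2 h), 0 to 2 (saline 7 d against 24 h), 4 to 8 (INS37217 7 d against 2 h) and 0 to 0 for all others without the block. With the block and 1 array left out, they were 0 to 1, 1 to 1 and 2 to 5 for INS37217 against saline at 2 h, 24 h and 7 d, and 1 to 1, 0 to 0 and 0 to 1 for the change of the effect from 2 h to 24 h, 24 h to 7 d and 2 h to 7 d. Why the counts moved was not tested, beyond the fewer arrays in some fits. The 3 pools of each group limit the precision of every difference.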
